A study of Sus scrofa with 12 samples.

Results

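The centromere and kinetochore proteins are the chromosomal machinery that holds a chromosome on the spindle, and their transcripts were followed here through in vitro maturation of the porcine oocyte. The genes were taken from a list of 39 proteins of the centromere, the inner and outer kinetochore and the microtubule couplers, extended by any further pig symbol with the CENP prefix, of which there were 0. Of the 39 genes listed, 32 matched one of the 31908 identifiers measured. CENPB, CENPO, CENPW, CENPX, PMF1, KNL1 and CENPV matched no identifier by symbol and were not analysed here. CENPS is the gene that the RefSeq annotation calls APITD1.

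A kinetochore is built on centromeric chromatin that carries the histone H3 variant CENPA. The inner kinetochore, a network of CENP proteins, sits on this chromatin, and the outer kinetochore, made of the MIS12, KNL1 and NDC80 complexes, binds the spindle microtubules. The SKA complex strengthens that grip, whereas the RZZ complex and the fibrous corona hold the dynein motor and the checkpoint proteins. An oocyte in the germinal vesicle stage transcribes little once it is fully grown and goes through both meiotic divisions mostly on stored mRNAs, and the length of the poly(A) tail of such an mRNA is known to govern its translation and stability.

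Libraries were made at 3 time points with 4 libraries each, which makes 12. Oocytes came from antral follicles of prepubertal gilts, from ovaries collected at a slaughterhouse, and no genetic change or strain is stated. At 0h the cumulus-oocyte complexes had not been cultured, and at 22h and 46h they had been kept for that time in a TCM199 medium with porcine follicular fluid, EGF, PMSG and HCG. Hyaluronidase and pipetting removed the cumulus cells, and each library was made from a pool of oocytes by SMART-Seq2 from an oligo-dT primer. The description of the series gives the middle time point as 24h, whereas the sample labels give 22h, which is used here. Nothing at hand says that the 4 pools of a stage came from separate animals or cultures, so the p-values measure the spread between these pools. A pool gives the average of its oocytes, so fewer oocytes that hold a transcript and less of it in each oocyte cannot be told apart.

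The values are FPKM, which are scaled to transcript length and to the library, and the number of reads behind them is unknown. Total FPKM was 697468 to 802184 per library, and fewer genes reached 1 FPKM at 46h, with 5819 to 6076 per library, than at 0h (6939 to 7895) and 22h (6682 to 7135). All 11 matched oocyte markers had a median of at least 1 FPKM at 0h, but 2 of them, ZAR1 and DDX4, were under it at 46h. The 11 summed to 17441 ± 2702 FPKM at 0h, 21460 ± 3624 at 22h and 5929 ± 1754 at 46h (SD, n = 4), and for 8 of the 11 every 46h library lay below every 0h library. Both shifts move with the falls at 46h described here, and their part in them was not tested. FPKM are scaled to the library, so a rise cannot be told apart from a steady transcript among falling ones. The libraries were primed at the poly(A) tail, and the part of tail length in rises and falls was not tested. Of 14 matched cumulus and granulosa markers, 8 to 12 were at 0 in each library, and the 12 other than VCAN and STAR summed to at most 0.70 FPKM in any library. All 14 summed to 36.7 to 85.5 FPKM in the 0h libraries, to 52.0 to 82.2 in those of 22h and to 111 to 139.9 in those of 46h, and VCAN made up 79.1% to 97.1% of this sum. Mitochondrially encoded transcripts made up 1.79% to 3.76% of FPKM at 0h, between 8.06% and 12.02% at 22h, and between 12.8% and 16.7% at 46h, and their part in the changes was tested only by leaving them out of the total on the TPM scale.

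More genes of the list were called between 22h and 46h than between 0h and 22h, as held for all genes tested. Of these, 9.87% were called higher and 32.6% lower in the later step, against 7.84% and 18.9% in the earlier. Subunits of the same complex were called in opposite directions. SKA1, SPC24, SPC25, DSN1 and SKA2 fell, to means 6.01-fold to 98.6-fold lower in FPKM at 46h than at 0h. Their binding partners NDC80 and NSL1 rose 1.90-fold and 2.14-fold in FPKM, which is relative to the rest of the library. CENPN, which reads the CENPA nucleosome, and ZWILCH, a subunit of the RZZ complex, showed the largest rises. Of the 32 genes, 30 had a mean of at least 1 FPKM and were tested, and CENPT and SKA3 lay below this limit. Genes were called at an adjusted p under 0.05 together with a change of more than 1.5-fold, both from limma on log2(FPKM + 1) with adjustment over all 7013 genes tested. A log2 change is the difference between the means of log2(FPKM + 1) of 2 stages, and its standard error (SE) comes from the same fit.

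At 22h against 0h, 2 of the 30 genes were called higher (6.67%, against 7.84% of all genes tested) and 2 lower (6.67%, against 18.9%). At 46h against 22h, 7 were called higher (23.3%, against 9.87%) and 8 lower (26.7%, against 32.6%). At 46h against 0h, 9 were called higher (30%, against 16.8%) and 9 lower (30%, against 39.1%). The shares called lower lay below those of all genes in each comparison, and the shares called higher lay above them in both comparisons with 46h. These differences were not tested, and in a list of 30 genes they are not read as a trait of the list. The comparisons share libraries and are not independent of each other. The median log2 change of the 30 genes was 0.03, -0.06 and 0.09 in these comparisons, beside -0.001, -0.26 and -0.25 over all genes tested. This order turned without the limit of 1 FPKM, with -0.20 for the list beside -0.028 for all genes at 46h against 22h. At 46h against 0h these medians were then -0.048 and -0.041. In all, 20 genes were called in at least 1 comparison (66.7%, against 63.7% of all genes tested) and 10 in none.

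These counts depend on how the libraries are scaled. With quantile normalization, 4 genes were called higher (13.3%, against 14.6% of all genes tested in the same way) and 2 lower (6.67%, against 15.4%) at 22h against 0h. Between 22h and 46h it gave 11 higher (36.7%, against 26.8%) and 7 lower (23.3%, against 21.5%), where the share called lower was no longer below that of all genes. At 46h against 0h it gave 15 higher (50%, against 40.3%) and 7 lower (23.3%, against 27.1%). Median-of-ratios scaling gave 3 higher (10%, against 9.51%) and 2 lower (6.67%, against 17.9%) at 22h against 0h, then 9 higher (30%, against 20.1%) and 7 lower (23.3%, against 25.6%) at 46h against 22h. It gave 13 higher (43.3%, against 29.2%) and 8 lower (26.7%, against 33%) at 46h against 0h. Quantile normalization moved the median of all genes at 46h against 0h from -0.25 to 0.34 and median-of-ratios scaling moved it to 0.06, so a small log2 change is to be read against this shift. Without replicate 4 at 0h, 5 genes were called higher at 22h against 0h, and without replicate 1 at 22h, 4 were called lower. On the TPM scale 8 genes were called higher and 9 lower at 46h against 0h, 6 and 9 at 46h against 22h, and 2 and 2 at 22h against 0h. TPM without the mitochondrially encoded genes gave 9 and 9, 7 and 8, and 4 and 2 in these comparisons, and the 4 higher at 22h included CENPA and HJURP. The calls of SKA1, SKA2, SPC24, SPC25, DSN1, CENPS and CENPU as lower, and of CENPA, CENPI, CENPN, NDC80, NSL1, ZWILCH and ZWINT as higher, at 46h against 0h held under each alternative that tested them.

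**Figure D1:**
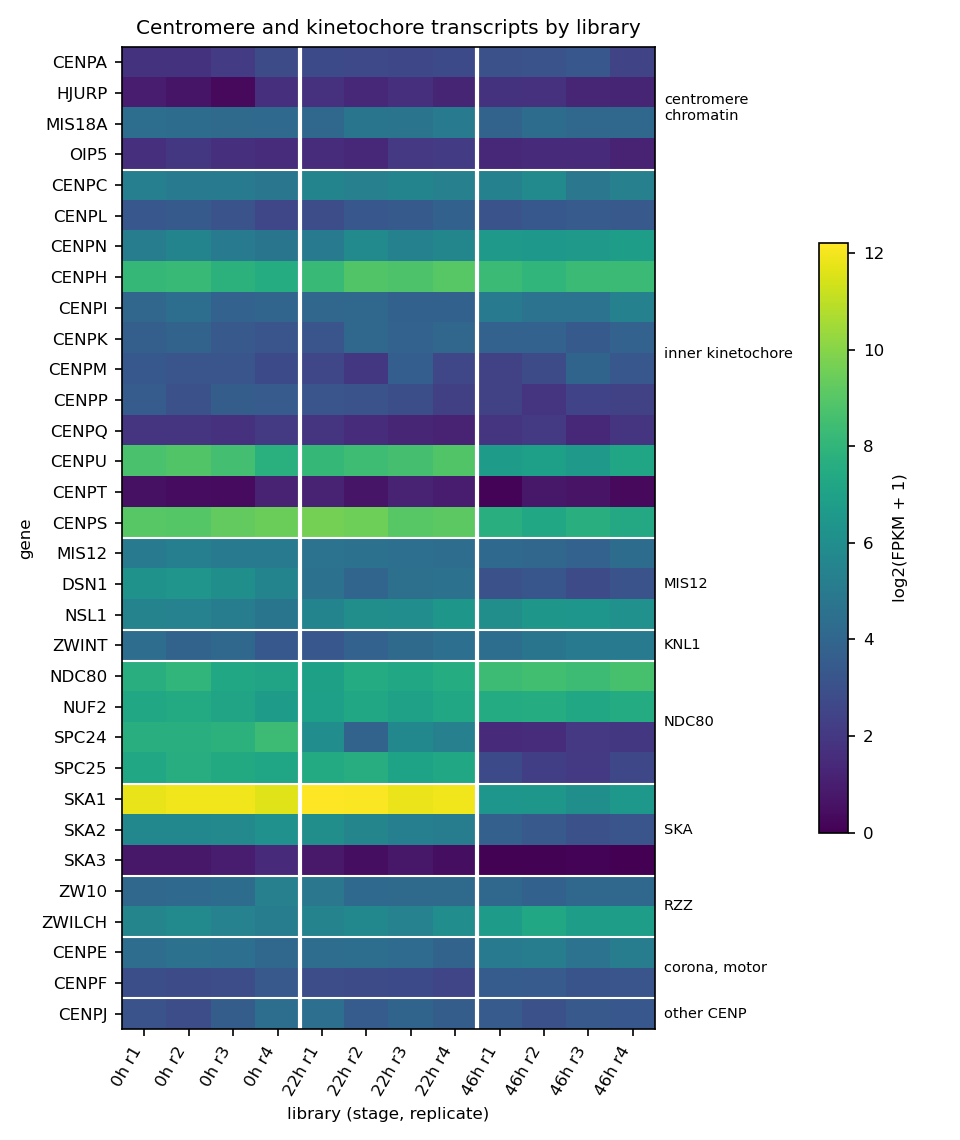
Level of each of the 32 genes (rows, in order of their role) in each of the 12 libraries (columns, stage and replicate) as log2(FPKM + 1), with dark colour for low and yellow for high. SKA1 stands above all other genes at 0h and 22h, and SPC24, SPC25, DSN1 and the SKA genes are darker in all 4 libraries at 46h.

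**Figure D2:**
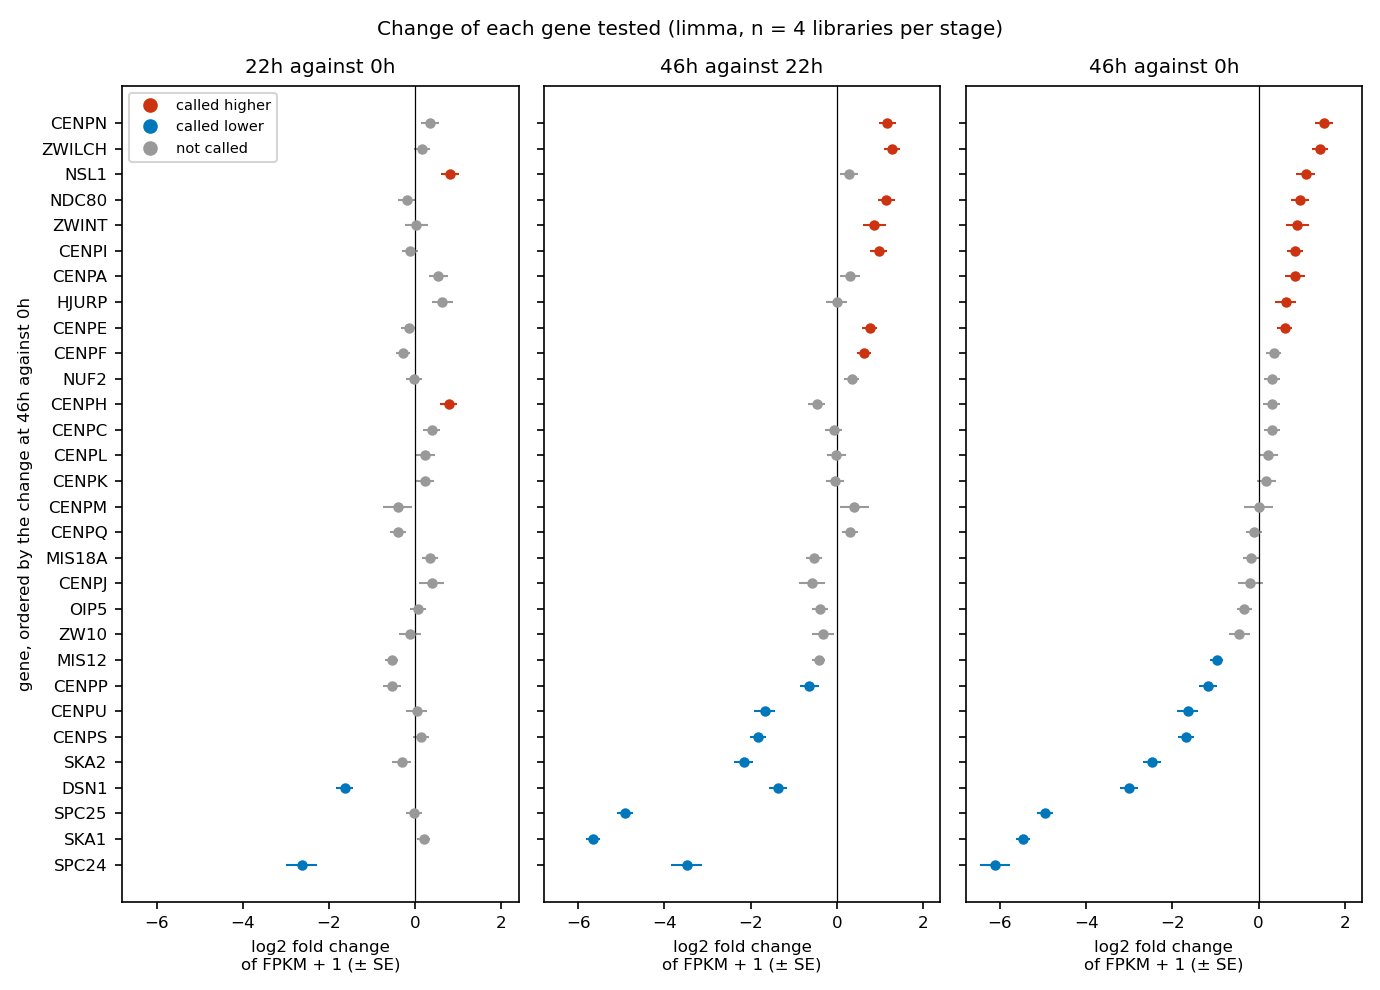
Log2 change of FPKM + 1 (x axis, points, with the SE from limma as bars) for the 30 genes tested, ordered by the change at 46h against 0h, in the 3 comparisons. Red genes were called higher and blue genes lower, and the 5 lowest genes at 46h against 0h lie between -6.12 and -2.48.

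The 3′ ends of these transcripts were read because the libraries were primed at the poly(A) tail, and because the sequence there is known to mark mRNAs whose tail is lengthened in the maturing oocyte. The cytoplasmic polyadenylation element was searched as TTTTAT or TTTTAAT, on the transcript strand, in the last 100 bases of the longest RefSeq mRNA model of each gene (Sscrofa11.1). This search was chosen after the values had been seen. The element was found in 7 of the 32 genes (21.9%) and in 15.6% of 19559 RefSeq genes. Each of the 7 is shown here, since none of them was called lower at 46h against 0h, with 30 bases around the copy nearest to the end, with the element and any polyadenylation hexamer (AATAAA or ATTAAA) in this window in capitals.
CENPN (chr6:7228024-7228053, minus strand): cttataaatcttTTTTATacatatggcatc
NSL1 (chr9:130668899-130668928, plus strand): aaaataatgtgtTTTTATTAAAataatgta
NDC80 (chr6:104000843-104000872, minus strand): aacttgttggatTTTTATttttagatatga
CENPI (chrX:82826603-82826632, plus strand): tattcattgattTTTTAATttaatacatgt
NUF2 (chr4:87162947-87162976, minus strand): ttttttTTTTAATatactctcataggttat
CENPH (chr16:47378699-47378728, plus strand): tatcaattgtatTTTTATtcaAATAAAtct
CENPK (chr16:44041523-44041552, minus strand): gtgttcataaaaTTTTATtaatactcttcg

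The element starts 25 bases from the annotated end in NSL1, 36 in CENPH, 37 in CENPI, 52 in CENPK, 61 in CENPN, 67 in NDC80 and 94 in NUF2. In NSL1 it overlaps the hexamer ATTAAA, and the capitals there cover both. The 4 genes with the largest falls at 46h against 0h hold no such element in their last 100 bases, like most RefSeq genes. ZWILCH, ZWINT, CENPA, CENPE and HJURP, which were called higher in that comparison, hold none either. The 4 largest falls are shown with the hexamer in capitals.
SPC24 (chr2:69884309-69884338, minus strand): gatcagcttaaaATTAAAtgtttatacaca
SKA1 (chr1:99993454-99993483, plus strand): aaacttaaaaaaAATAAAgtatgtatattt
SPC25 (chr15:75357015-75357044, minus strand): tagtagaagcttAATAAAtacgtgttagtg
DSN1 (chr17:39992775-39992804, minus strand): cataaatcatatAATAAAaaaggctgtgct

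Of the 7 genes with the element, 4 were called higher and 0 lower at 46h against 0h, with a median log2 change of 0.85. Of the 23 tested genes without it, 5 were called higher and 9 lower, with a median of -0.20. Among the 5771 tested genes that could be matched to a 3′ end by symbol, 22.9% of the 1262 with the element were called higher and 27.3% lower, against 15.1% and 41.8% of the 4509 without it. At 22h against 0h, both genes called higher hold the element and neither gene called lower does, while among all matched genes 12.3% of those with the element were called higher and 10.8% lower, against 7.01% and 20.6% of those without it. These counts are a description without a test, the list is small, and the length of the poly(A) tails was not measured. A search of all transcript models of a gene instead of the longest found the same 7 genes, beside 18.5% of all RefSeq genes. A match of these letters does not show that the element is used, and its absence from this window says nothing of elements further upstream. The longest model ends inside the annotated span of the gene for 5 of the 32 genes, by 32816 bases in CENPK, 17837 in SPC25, 7360 in ZWINT, 4432 in CENPS and 4 in NUF2, and the search of all models covers the other annotated ends.

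**Figure D3:**
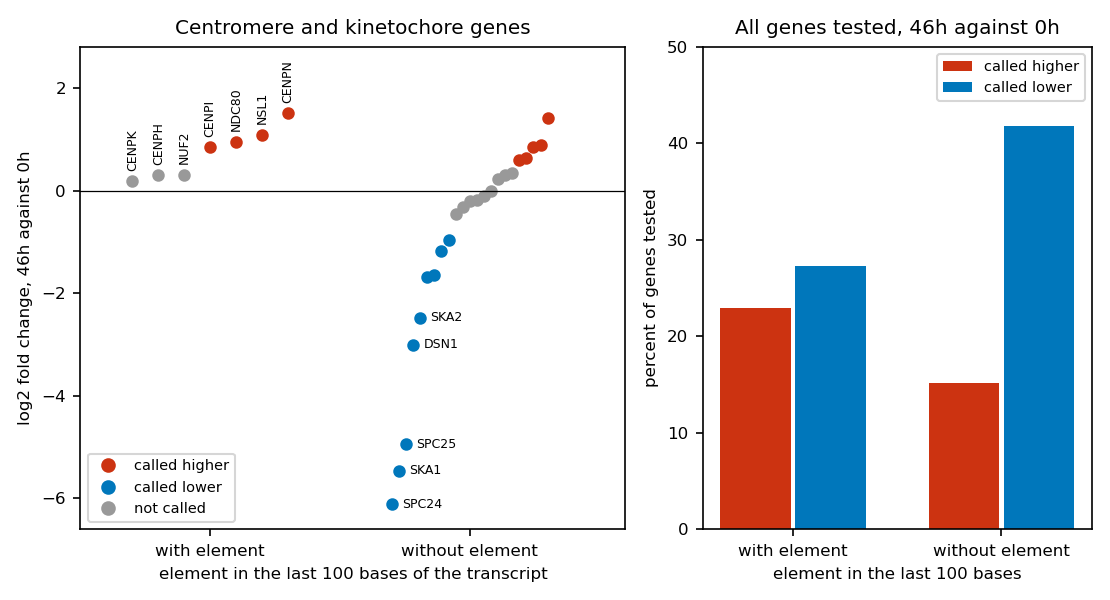
Left, log2 change at 46h against 0h (y axis) of the 30 genes tested, split by a cytoplasmic polyadenylation element in the last 100 bases of the transcript, with the 7 genes that hold it and the 5 largest falls named. Right, percent of all matched genes tested that were called higher (red) or lower (blue) with and without the element, where 22.9% and 27.3% with the element stand beside 15.1% and 41.8% without it.

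CENPA, HJURP and OIP5 were among the lowest transcripts of the list, and CENPA and HJURP were called higher at 46h against 0h. CENPA is the histone that marks the centromere. In the 4 libraries of each stage, CENPA stood at 2.5, 2.49, 3.5 and 6.04 FPKM at 0h, at 5.66, 5.4, 5.17 and 5.6 at 22h and at 7.21, 7.68, 8.91 and 4.69 at 46h. CENPA was lowest in 3 of the 0h libraries, but the stages overlapped. Replicate 4 at 0h lay above all 22h libraries and above replicate 4 at 46h, which itself lay below all 22h libraries. Its log2 change at 46h against 0h was 0.84 (SE 0.23, adjusted p = 0.00485), and 0.54 (SE 0.23, adjusted p = 0.0842) at 22h against 0h, which was called (0.76, adjusted p = 0.00696) only without the high replicate 4 at 0h or under 2 of the scalings. From 22h to 46h CENPA was called higher with median-of-ratios scaling (0.61) and quantile normalization (0.81), against 0.30 as reported. HJURP is the chaperone that deposits CENPA. HJURP measured 0.93, 0.59, 0.25 and 2.08 FPKM in the 0h libraries, 2.33, 1.64, 2.28 and 1.38 at 22h and 2.41, 2.29, 1.49 and 1.42 at 46h. Its levels were near the limit of 1 FPKM and overlapped between all stages. The log2 change of HJURP at 46h against 0h was 0.63 (SE 0.24, adjusted p = 0.0366), but the call was lost without the filter on low values (adjusted p = 0.0865) and without replicate 1, 2 or 3 at 0h or replicate 1 or 2 at 46h, with log2 changes of 0.44 to 0.65, and in the fit of these 2 stages alone (adjusted p = 0.0574) or with a replicate block (adjusted p = 0.0538). At 22h against 0h the log2 change of HJURP was 0.63 (SE 0.24, adjusted p = 0.0621), which was not called, but was so with median-of-ratios scaling, quantile normalization, TPM without the mitochondrially encoded genes and without replicate 4 at 0h (0.64 to 0.88). MIS18A and OIP5, whose products license the centromere for new CENPA, were called in no comparison, with mean levels of 16.2 to 24.3 FPKM for MIS18A and 1.63 to 2.5 FPKM for OIP5. MIS18A had a log2 change of -0.53 (SE 0.19, adjusted p = 0.0313) at 46h against 22h, which lies under the limit of 1.5-fold but was past it without replicate 1 at 22h (-0.72) or replicate 2 at 46h (-0.60) and on the TPM scale (-0.62).

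In the inner kinetochore CENPN and CENPI were called higher at 46h, CENPU, CENPS and CENPP lower, and CENPH higher at 22h. Of its 11 genes tested, 2 were called higher (18.2%, against 16.8% of all genes tested) and 3 lower (27.3%, against 39.1%) at 46h against 0h. CENPN contacts the CENPA nucleosome directly together with its partner CENPL. Levels of CENPN were 34.3, 44.5, 31.2 and 25.8 FPKM at 0h, 30.6, 55.01, 40.5 and 47.6 at 22h and 96.5, 90.5, 92.7 and 109.5 at 46h. The 46h libraries all lay above those of the other stages, at 97.3 ± 8.51 FPKM (SD, n = 4) against 33.9 ± 7.84 at 0h. CENPN had the largest rise of the list at 46h against 0h, with a log2 change of 1.52 (SE 0.20, adjusted p = 1.38e-05), and of 1.17 (SE 0.20, adjusted p = 0.000262) at 46h against 22h. CENPL was called in no comparison, with means of 7.96 FPKM at 0h, 9.54 at 22h and 9.24 at 46h. CENPC, the backbone protein that links CENPA chromatin to the MIS12 complex, was not called either, with means of 31.9, 41.6 and 40.4 FPKM. At 46h against 0h CENPL was called with quantile normalization (0.88), and CENPC with it (0.82) and with median-of-ratios scaling (0.70).

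CENPH, CENPI, CENPK and CENPM form one subcomplex, and only CENPH and CENPI among them were called. CENPH was one of the most abundant inner kinetochore transcripts. At 0h CENPH was at 281, 295, 232 and 189.9 FPKM, at 22h it was at 296, 473, 437 and 516, and at 46h at 322, 263, 319 and 316. All 22h libraries lay above all 0h libraries, with means of 430.4 ± 95.3 against 249 ± 47.9 FPKM (SD, n = 4). The log2 change of CENPH at 22h against 0h was 0.78 (SE 0.20, adjusted p = 0.00891). At 46h against 22h it was -0.47 (SE 0.20, adjusted p = 0.064), which was called only without replicate 1 at 22h (-0.64, adjusted p = 0.0109). Against 0h, the 46h change of CENPH was 0.31 (SE 0.20, adjusted p = 0.194), which was called with median-of-ratios scaling alone (0.71, adjusted p = 0.021). CENPI rose at the later stage. In the 4 libraries of each stage, CENPI stood at 15.2, 19.96, 13.2 and 14.9 FPKM at 0h, at 15.3, 16.7, 13.01 and 12.8 at 22h and at 30.7, 24.1, 24.2 and 39.6 at 46h. The 46h libraries of CENPI all lay above the others, and its log2 change was 0.85 (SE 0.19, adjusted p = 0.00124) at 46h against 0h and 0.97 (SE 0.19, adjusted p = 0.000747) at 46h against 22h. CENPK and CENPM had means between 6.18 and 13.2 FPKM, with log2 changes at 46h against 0h of 0.18 (adjusted p = 0.474) and -0.00 (adjusted p = 0.999). With quantile normalization CENPK was called higher at 46h against 0h (0.81) and CENPM at 46h against 22h (0.89).

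CENPU, CENPP and CENPQ belong to another subcomplex, in which CENPU is a docking site for the kinase PLK1. CENPU measured 419, 477, 371 and 217 FPKM in the 0h libraries, 280.2, 340.3, 388 and 478 at 22h and 108, 117, 91.9 and 143 at 46h. CENPU was high at 0h and 22h and lower in every 46h library. For CENPU the log2 change was -1.68 (SE 0.25, adjusted p = 6.51e-05) at 46h against 22h and -1.64 (SE 0.25, adjusted p = 4.26e-05) at 46h against 0h, a mean level 3.23-fold lower. CENPP fell from a lower level. Levels of CENPP were 10.9, 7.24, 11.3 and 10.4 FPKM at 0h, 8.3, 7.75, 6.55 and 4.03 at 22h and 4.14, 2.63, 4.47 and 4.15 at 46h. All 46h libraries of CENPP lay below the 0h libraries, whereas 46h and 22h overlapped. The log2 change of CENPP was -1.17 (SE 0.22, adjusted p = 0.000275) at 46h against 0h, a call lost with quantile normalization (-0.51, under the limit of 1.5-fold). At 46h against 22h it was -0.64 (SE 0.22, adjusted p = 0.0249), where quantile normalization gave -0.13 (adjusted p = 0.595) and median-of-ratios scaling -0.35 (adjusted p = 0.157), and the call was also lost without the filter (adjusted p = 0.0619) and without replicate 1 (-0.53) or 2 (-0.56) at 22h or replicate 2 at 46h (-0.51). CENPP was called lower at 22h against 0h without replicate 2 at 0h (-0.67) or replicate 1 at 22h (-0.64), against -0.54 as reported. The CENPP gene overlaps OGN, OMD, ASPN, ECM2 and IPPK on the opposite strand, and the reads were not stated to carry strand. CENPQ was low, with means of 1.86 to 2.73 FPKM, and was called in no comparison, but with quantile normalization it was called higher at 46h against 22h (0.79) and against 0h (0.59).

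CENPS, a histone-fold protein that works both at the kinetochore and with the DNA repair factor FANCM, was among the most abundant transcripts of the list. At 0h CENPS was at 529.6, 498, 614 and 709 FPKM, at 22h it was at 816, 718, 524 and 549.9, and at 46h at 205, 157, 197 and 163. The 46h libraries of CENPS all lay below those of 0h and 22h. Its log2 change was -1.83 (SE 0.19, adjusted p = 1.78e-06) at 46h against 22h and -1.69 (SE 0.19, adjusted p = 1.97e-06) at 46h against 0h, a mean level 3.26-fold lower than at 0h. CENPT, its partner in the histone-fold complex that binds NDC80, stayed under the filter at 0.568 ± 0.440 FPKM at 0h, 0.983 ± 0.303 at 22h and 0.405 ± 0.307 at 46h (SD, n = 4). Without the filter it was called in no comparison (limma, adjusted p from 0.127 to 0.646).

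The MIS12 complex joins the inner to the outer kinetochore. Of its 3 measured subunits, NSL1 was called higher and DSN1 and MIS12 lower at 46h against 0h. Over all genes tested, 16.8% were called higher and 39.1% lower in this comparison. DSN1 fell stepwise. In the 4 libraries of each stage, DSN1 stood at 75.2, 80.6, 66.7 and 44.9 FPKM at 0h, at 23.0, 14.6, 21.7 and 23.2 at 22h and at 7.05, 8.56, 5.95 and 7.63 at 46h. No stage overlapped another, with means of 66.8 ± 15.7, 20.6 ± 4.05 and 7.30 ± 1.09 FPKM (SD, n = 4). DSN1 had a log2 change of -1.64 (SE 0.21, adjusted p = 7.92e-05) at 22h against 0h, -1.37 (SE 0.21, adjusted p = 8.98e-05) at 46h against 22h and -3.01 (SE 0.21, adjusted p = 1.63e-08) at 46h against 0h. NSL1 went the other way. NSL1 measured 42.9, 41.4, 33.4 and 25.9 FPKM in the 0h libraries, 44.8, 63.3, 62.2 and 85.5 at 22h and 63.4, 86.6, 85.4 and 71.6 at 46h. All 22h and 46h libraries of NSL1 lay above those of 0h, while 22h and 46h overlapped. Its log2 change was 0.81 (SE 0.21, adjusted p = 0.0112) at 22h against 0h and 1.09 (SE 0.21, adjusted p = 0.000477) at 46h against 0h. From 22h to 46h NSL1 was called with quantile normalization alone (0.61, against 0.28 as reported).

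MIS12, the subunit that names the complex, declined more mildly. Levels of MIS12 were 30.5, 37.8, 30.8 and 30.1 FPKM at 0h, 23.99, 22.7, 20.9 and 19.6 at 22h and 16.8, 15.35, 13.3 and 18.7 at 46h. The stages did not overlap, and the log2 change at 46h against 0h was -0.97 (SE 0.15, adjusted p = 6.34e-05). At 22h against 0h it was -0.54 (SE 0.15, adjusted p = 0.0143) and at 46h against 22h -0.43 (SE 0.15, adjusted p = 0.0311), both under the limit of 1.5-fold. The call of MIS12 at 46h against 0h was lost with median-of-ratios scaling (-0.58) and quantile normalization (-0.43), each under the fold limit. Within a library the ratio of NSL1 to DSN1, which a single scaling factor per library leaves as it is, had a median of 0.542 at 0h (0.501 to 0.578), 3.28 at 22h (1.95 to 4.33) and 9.75 at 46h (9.0 to 14.4). The ratio of DSN1 to MIS12 had medians of 2.15, 0.999 and 0.434.

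The NDC80 complex is a rod of 4 subunits that reaches from the MIS12 complex and CENPT to the microtubule. NDC80 was called higher and SPC24 and SPC25 lower at 46h against 0h, where 16.8% and 39.1% of all genes tested were. NDC80 and NUF2 form the microtubule-binding end. At 0h NDC80 was at 202, 257, 159 and 139 FPKM, at 22h it was at 119, 184, 161 and 188, and at 46h at 331, 368, 329.8 and 406.5. NDC80 overlapped between 0h and 22h and was higher in every 46h library, at 359 ± 36.4 FPKM (SD, n = 4). NDC80 had a log2 change of 1.15 (SE 0.21, adjusted p = 0.000393) at 46h against 22h and 0.95 (SE 0.21, adjusted p = 0.00107) at 46h against 0h. NUF2 had means of 144 ± 30.6, 140.1 ± 21.5 and 177 ± 14.7 FPKM. The log2 change of NUF2 at 46h against 0h was 0.31 (SE 0.18, adjusted p = 0.151), which was not called, although it was with median-of-ratios scaling (0.71) and quantile normalization (0.61). From 22h to 46h NUF2 was called with median-of-ratios scaling alone (0.69, against 0.34 as reported).

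SPC24 and SPC25 form the other end, which docks on the MIS12 complex and CENPT. In the 4 libraries of each stage, SPC24 stood at 202, 198, 227 and 323 FPKM at 0h, at 62.4, 13.9, 51.5 and 39.3 at 22h and at 1.82, 1.88, 3.04 and 2.89 at 46h. SPC24 fell in each step, and no stage overlapped another. The log2 change of SPC24 was -2.64 (SE 0.36, adjusted p = 0.000119) at 22h against 0h, -3.48 (SE 0.36, adjusted p = 2.01e-06) at 46h against 22h and -6.12 (SE 0.36, adjusted p = 2.98e-09) at 46h against 0h, the last being the largest fall of the list. Its mean was 98.6-fold lower at 46h than at 0h. SPC25 measured 161, 193, 167 and 145 FPKM in the 0h libraries, 177, 194, 134 and 151 at 22h and 5.78, 3.74, 3.27 and 5.16 at 46h. At 22h the libraries of SPC25 overlapped those of 0h, and its log2 change was -0.03 (SE 0.19, adjusted p = 0.916). At 46h against 22h SPC25 had a log2 change of -4.92 (SE 0.19, adjusted p = 8.45e-11), and at 46h against 0h of -4.95 (SE 0.19, adjusted p = 5.36e-11). NOSTRIN overlaps SPC25 on the opposite strand, whereas SPC24 overlaps no annotated gene.

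Ratios of subunits within a library are left as they are by a single scaling factor per library, though not by quantile normalization. For these ratios the pairs were chosen after the values had been seen and no test was made. SPC25 stood at 0.922 of NDC80 by median at 0h (0.749 to 1.05), 0.945 at 22h (0.802 to 1.48) and 0.0114 at 46h (0.00992 to 0.0175). SPC24 stood at 1.21 of NDC80 at 0h (0.769 to 2.34), 0.265 at 22h (0.0755 to 0.523) and 0.00631 at 46h (0.00511 to 0.00922). NUF2 stood at 0.768, 0.853 and 0.494 of NDC80. The transcripts of the 4 subunits were thus within a few fold of each other at 0h, while at 46h SPC24 and SPC25 were at most 0.0175 of NDC80 in any library.

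**Figure D4:**
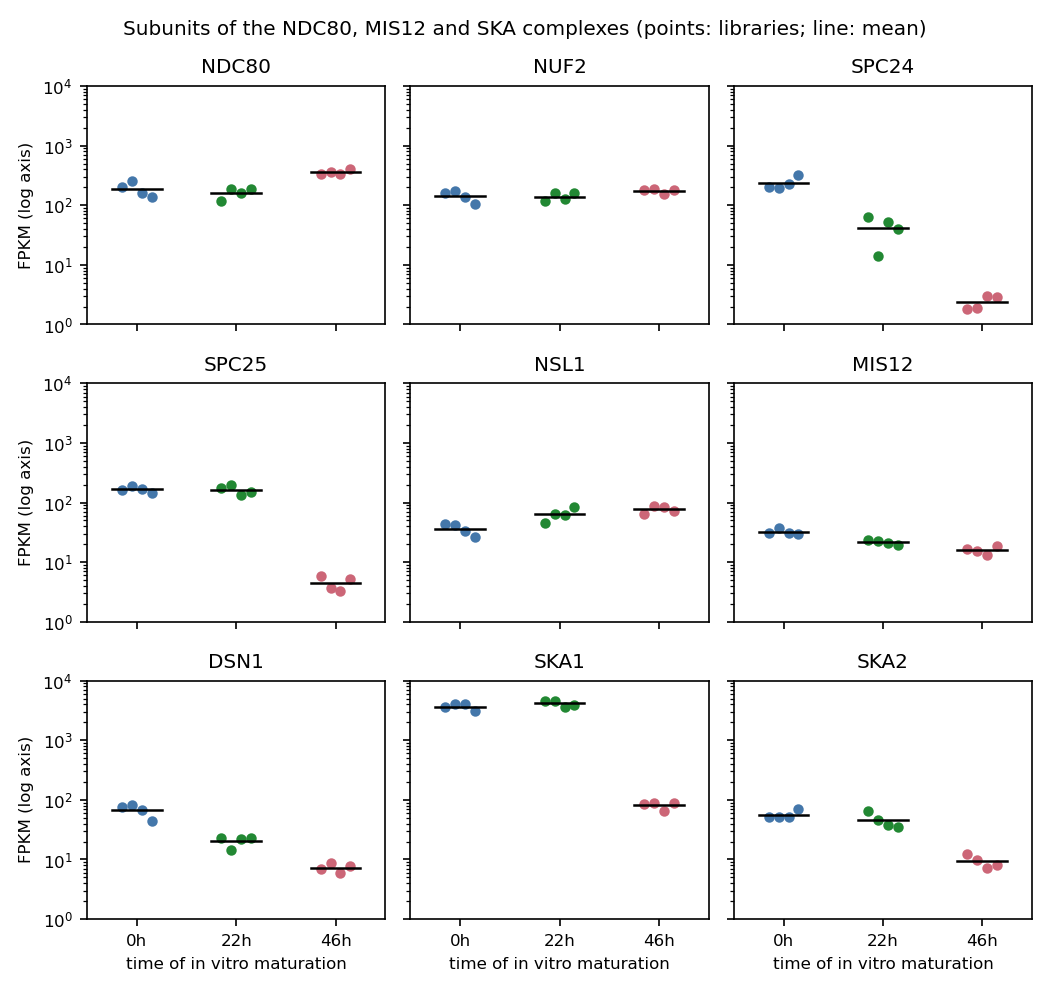
FPKM (y axis, log scale shared by all panels) of 9 subunits of the NDC80, MIS12 and SKA complexes at 0h, 22h and 46h, with points for the 4 libraries of a stage and a line for their mean. NDC80 and NSL1 rise while SPC24, SPC25, DSN1, SKA1 and SKA2 fall, with no 46h library of these 5 above any 0h library.

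**Figure D5:**
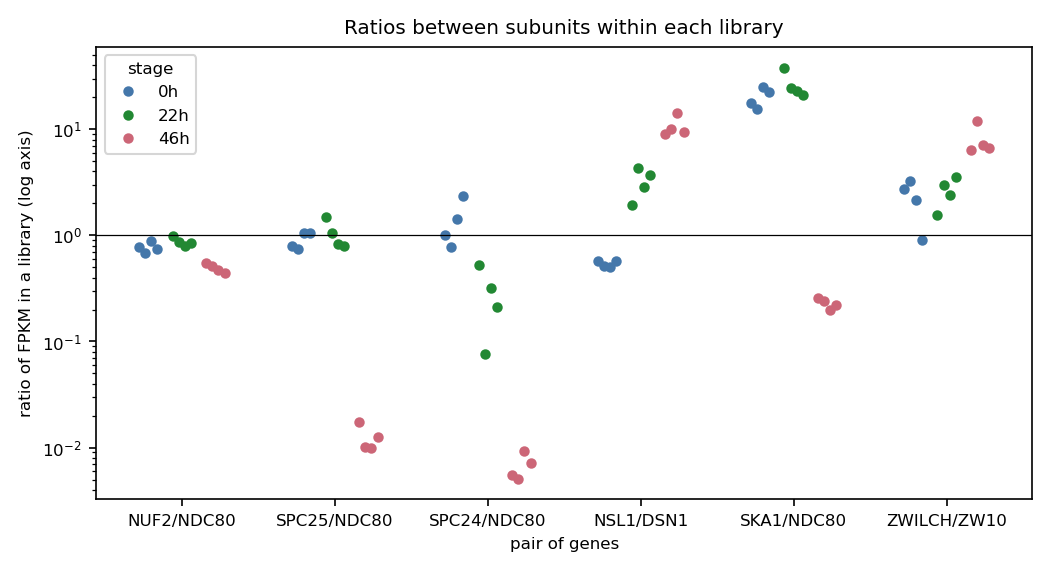
Ratio of the FPKM of 2 genes within each library (y axis, log scale) for 6 pairs, with 4 points per stage and a line at 1. SPC25/NDC80 has medians of 0.922, 0.945 and 0.0114, and SKA1/NDC80 of 20.0, 23.8 and 0.230.

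ZWINT, a KNL1 partner that helps to recruit the RZZ complex, was higher at 46h. Levels of ZWINT were 19.4, 13.55, 16.2 and 9.29 FPKM at 0h, 8.81, 13.3, 17.4 and 20.9 at 22h and 20.5, 25.8, 31.1 and 32.8 at 46h. The 46h libraries of ZWINT lay above all 0h libraries, and replicate 1 at 46h lay below replicate 4 at 22h. ZWINT had a log2 change of 0.87 (SE 0.26, adjusted p = 0.0145) at 46h against 22h and 0.89 (SE 0.26, adjusted p = 0.00884) at 46h against 0h.

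The SKA complex tracks the ends of shortening microtubules. Both of its tested transcripts were called lower at 46h against 0h, as were 39.1% of all genes tested. SKA1 carries the microtubule-binding domain. At 0h SKA1 was at 3554, 3982, 3983 and 3106 FPKM, at 22h it was at 4552, 4539, 3676 and 3968, and at 46h at 85.1, 87.6, 65.4 and 90.2. SKA1 was high in all 8 libraries of 0h and 22h and low in all 4 of 46h. By mean FPKM it ranked 32 of 31908 identifiers at 0h, 37 at 22h and 706 at 46h. The log2 change of SKA1 was 0.20 (SE 0.16, adjusted p = 0.369) at 22h against 0h, -5.66 (SE 0.16, adjusted p = 6.95e-12) at 46h against 22h and -5.46 (SE 0.16, adjusted p = 7.34e-12) at 46h against 0h, and its mean was 44.5-fold lower at 46h than at 0h. No annotated gene overlaps SKA1, which lies at chr1:99976354-99993492 on the plus strand.

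SKA1 alone made up between 57.9% and 62.9% of the summed FPKM of the 32 genes at 0h, 60.9% to 66.5% at 22h, but 3.86% to 4.92% at 46h. The sum was 5363 to 6572 FPKM at 0h and 1694 to 1874 FPKM at 46h. With SKA1 left out, the 0h libraries summed to 2257 to 2589 FPKM, those of 22h to 2257 to 2553, and those of 46h to 1628 to 1784. SKA2, which joins SKA1 and SKA3 in the dimeric core, followed at a lower level. In the 4 libraries of each stage, SKA2 stood at 50.8, 51.6, 51.9 and 70.5 FPKM at 0h, at 64.5, 45.55, 38.05 and 35.1 at 22h and at 12.4, 9.64, 7.21 and 8.19 at 46h. All 46h libraries of SKA2 lay below the rest, with a log2 change of -2.16 (SE 0.21, adjusted p = 1.4e-06) at 46h against 22h and -2.48 (SE 0.21, adjusted p = 1.7e-07) at 46h against 0h. SKA3 was under the filter by its mean over the 12 libraries, with stage means of 1.05 ± 0.493 FPKM at 0h, 0.55 ± 0.222 at 22h and 0.0525 ± 0.034 at 46h (SD, n = 4). Tested without the filter, SKA3 had a log2 change of -0.94 at 46h against 0h (limma, adjusted p = 0.000502).

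The RZZ complex brings dynein and checkpoint proteins to kinetochores that lack microtubules, and of its measured subunits only ZWILCH was called. It was called higher at 46h against 0h, as were 16.8% of all genes tested. ZWILCH measured 45.9, 55.5, 41.2 and 35.0 FPKM in the 0h libraries, 43.3, 51.4, 41.5 and 61.2 at 22h and 107, 151, 113 and 110.2 at 46h. ZWILCH was higher in all 46h libraries than in any other, with means of 44.4 ± 8.65, 49.4 ± 9.01 and 120.2 ± 20.5 FPKM (SD, n = 4). Its log2 change was 1.27 (SE 0.19, adjusted p = 7.02e-05) at 46h against 22h and 1.42 (SE 0.19, adjusted p = 1.28e-05) at 46h against 0h. ZW10, which also works in membrane traffic, had a log2 change of -0.45 (SE 0.25, adjusted p = 0.132) at 46h against 0h. The ratio of ZWILCH to ZW10 within a library had a median of 2.47 at 0h (0.910 to 3.28), 2.69 at 22h (1.56 to 3.52) and 6.87 at 46h (6.43 to 11.9).

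The corona proteins CENPE and CENPF rose from 22h to 46h. CENPE is a kinesin that carries chromosomes towards the spindle equator. Levels of CENPE were 19.65, 22.8, 21.1 and 16.45 FPKM at 0h, 19.6, 20.4, 17.99 and 13.8 at 22h and 32.4, 33.5, 24.4 and 33.7 at 46h. Its 46h libraries lay above all others, and its log2 change was 0.76 (SE 0.17, adjusted p = 0.00235) at 46h against 22h and 0.61 (SE 0.17, adjusted p = 0.00696) at 46h against 0h. The latter lay close to the limit of 1.5-fold, and the TPM scale gave 0.51 and the fit without replicate 4 at 0h or replicate 1, 2 or 4 at 46h gave 0.52 to 0.58, under that limit. CENPF binds microtubules and dynein regulators. At 0h CENPF was at 6.7, 6.12, 6.27 and 9.64 FPKM, at 22h it was at 6.3, 5.8, 5.59 and 4.88, and at 46h at 10.65, 10.4, 8.04 and 8.31. The 46h libraries of CENPF lay above those of 22h and overlapped those of 0h. CENPF had a log2 change of 0.63 (SE 0.17, adjusted p = 0.00632) at 46h against 22h, which fell under the limit on the TPM scale (0.57) and without replicate 4 at 22h (0.58) or replicate 1 at 46h (0.57). Against 0h, the 46h change of CENPF was 0.35 (SE 0.17, adjusted p = 0.0839), which was not called, but was so with median-of-ratios scaling (0.71, adjusted p = 0.000794) and quantile normalization (1.0, adjusted p = 3.43e-05). The ratio of CENPE to CENPF within a library had medians of 3.15, 3.16 and 3.14 at the 3 stages.

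CENPJ carries the CENP prefix but is a protein of the centriole, and it was called in no comparison, with means of 11.3, 14.2 and 8.94 FPKM, except as higher at 22h against 0h without replicate 4 at 0h (0.68). The 10 genes called in no comparison were MIS18A, OIP5, CENPC, CENPL, CENPK, CENPM, CENPQ, NUF2, ZW10 and CENPJ, with means between 2.31 and 144.3 FPKM at 0h and between 1.63 and 177 at 46h. Of these, 8 were called in some comparison under at least 1 alternative, and OIP5 and ZW10 under none. A missed threshold does not show that these levels were the same in each stage.

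Other genes of the centromere, the checkpoint and the chromosomal passenger complex were called in both directions as well. Of 26 such genes listed, 23 matched an identifier and 20 were tested. At 46h against 0h, 5 were called higher (25%, against 16.8% of all genes tested), namely SGO1, SGO2, CLASP2, AURKB and MAD2L1, and 7 lower (35%, against 39.1%), namely BUB3, MEIKIN, NDEL1, SPDL1, HASPIN, NDE1 and BIRC5. At 22h against 0h 2 were called higher (10%, against 7.84%) and 3 lower (15%, against 18.9%), and at 46h against 22h 3 higher (15%, against 9.87%) and 8 lower (40%, against 32.6%). Their balance shifted with the scaling, as did that of all genes tested. With quantile normalization 6 were called higher (30%, against 26.8%) and 4 lower (20%, against 21.5%) at 46h against 22h, and 8 higher (40%, against 40.3%) and 7 lower (35%, against 27.1%) at 46h against 0h. With median-of-ratios scaling 5 were called higher (25%, against 20.1%) and 6 lower (30%, against 25.6%) at 46h against 22h, and 7 higher (35%, against 29.2%) and 6 lower (30%, against 33%) at 46h against 0h. SGO2, which protects cohesin at meiotic centromeres, rose most, from 70.9 ± 33.3 FPKM at 0h to 155 ± 27.4 at 46h (SD, n = 4), a log2 change of 1.26 (SE 0.34, adjusted p = 0.00479). Its replicate 4 at 0h, at 26.3 FPKM, lay below the others at 66.5 to 103.1, and the rank of SGO2 rests on that library. BIRC5, the survivin subunit of the chromosomal passenger complex, fell most, from 38.7 ± 6.11 to 12.3 ± 3.77 and 1.85 ± 0.295 FPKM, a log2 change of -3.79 (SE 0.21, adjusted p = 2.11e-09) at 46h against 0h. INCENP, MAD1L1 and CLASP1 were under the filter, and ITGB3BP, KNSTRN and AURKC matched no identifier.

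The promoters were searched for motifs of cell cycle genes, as the genes of this list are known for joint transcription in dividing cells. The window ran from 250 bases before to 50 after the annotated start, and both strands were read. The cell cycle homology element TTTGAA was found in 10 of the 32 promoters (31.2%, against 14.0% of 19559), the CCAAT box in 20 (62.5%, against 35.4%) and an E2F site written as TTTGGCGC or TTTCGCGC in 2 (6.25%, against 1.16%), those of OIP5 and ZWINT. The genes with the TTTGAA element were CENPA, HJURP, CENPI, CENPE, ZWILCH, SPC25, MIS18A, OIP5, CENPL and NUF2. These matches were counted without a test and were not set against the calls.

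Overlapping genes limit the reading of some levels. Of the 32 genes, 13 overlap another annotated gene or pseudogene in RefSeq, 12 of them one on the opposite strand. Those called are CENPU (PRIMPOL), MIS12 (DERL2), NSL1 (TATDN3), ZWILCH (LCTL), CENPP, SPC25, NDC80, CENPF and CENPH. The partner of NDC80 is a pseudogene and that of CENPF a noncoding RNA gene. CENPH overlaps a noncoding RNA gene on the opposite strand and a pseudogene on its own strand. Without strand, reads of partners on opposite strands cannot be told apart where their exons overlap. SKA1, SKA2, SPC24, DSN1, CENPN, CENPS, CENPI, CENPA and CENPE overlap none.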

How the data were processed

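Transcriptomes of pooled porcine oocytes were measured by SMART-Seq2, with 4 libraries per stage and 12 in all. The values are FPKM per Ensembl gene identifier as deposited by the authors, who checked the reads with FastQC, trimmed them with Trim Galore, aligned them to the swine genome Sscrofa11 with STAR and quantified FPKM with RSEM. Whether low values were rounded or filtered is not given in the sources used here. The authors' own test used read counts with DESeq2. The files used here hold no counts, so the depth is unknown and that test could not be run.

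Identifiers were named from a gene table and from the symbol column of a supplementary table, which named 15201 of 31908. The columns of fold changes and p-values in that table were not used. The genes of the list, their roles and the other gene lists were chosen with earlier results of these data known. Genes averaging 1 FPKM or more across all libraries (7013) were tested on log2(FPKM + 1), with a pseudocount of 1, by the linear models of limma 3.58.1 (R 4.3.3) with variance moderation that follows an intensity trend. Stage was the only factor, and all libraries entered 1 fit. The two-sided p-values were adjusted by Benjamini and Hochberg's method over all genes tested, and a call needed an adjusted p under 0.05 and a fold change over 1.5. Log2 changes on this scale understate those of low genes. The fit was tested on simulated data with known changes. Genes of the list called in at least 1 comparison are given by library in the Results, and the others by stage means, ranges of means or log2 changes. No 2 libraries shared more than 3.47% of their values above 0.

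Sequences, motifs and coordinates come from RefSeq genes of Sscrofa11.1 (19559 with an end searched) and were read with pysam 0.24.0. Protein sequences were not used here. Python 3.11.15 with pandas 2.3.3, numpy 2.4.6 and matplotlib 3.10.9 made the tables and figures. The alternatives were a pseudocount of 0.1, no filter, a mean of 5 FPKM or more, 4 other scalings (median-of-ratios, quantile, TPM, and TPM after removal of the mitochondrially encoded genes), separate fits for each pair of stages, moderation without the trend, the replicate number as a block, calls by the adjusted p alone, and leaving out each library in turn.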

Additional observations from a re-analysis of the deposited data

Results flagged for a closer look

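In each of 90 groups of 4 libraries (30 genes at 3 stages), the highest or lowest library was compared with the other 3 by the share of the range that its gap takes, with Dixon's critical value at the 95% level as the limit. Chance alone flags about 1 group in 20, and 10 libraries stood apart by this measure. At 0h they were replicate 4 of SKA2, at 70.48 FPKM against 50.78 to 51.87 in the others, replicate 4 of ZW10, at 38.45 against 16.64 to 18.95, and replicate 2 of MIS12, at 37.76 against 30.10 to 30.77. At 22h they were replicate 2 of DSN1, at 14.63 FPKM against 21.69 to 23.18, and replicate 1 of ZW10, at 27.79 against 17.21 to 17.40. At 46h, replicate 2 was the lowest of CENPH, at 262.77 FPKM against 316.47 to 321.66, and of CENPP, at 2.63 against 4.14 to 4.47, and the highest of ZWILCH, at 150.86 against 107.01 to 112.91. Replicate 3 at 46h was the lowest of CENPK, at 9.94 FPKM against 13.16 to 13.49, and of CENPE, at 24.43 against 32.42 to 33.67. The calls of SKA2, DSN1 and ZWILCH held without these libraries, whereas CENPP lost its call at 46h against 22h without replicate 2 at 46h (-0.51, adjusted p = 0.0839 from limma).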

How the results depend on the processing

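Of the genes called at 46h against 0h, 7 of 9 higher and 7 of 9 lower kept their call under each alternative that tested them. The others were CENPE, HJURP, CENPP and MIS12. At 46h against 22h CENPF and CENPP lost theirs under some, and at 22h against 0h all 4 calls held. Not every alternative could move a result freely. Leaving out a library of the stage not compared keeps the log2 change, and calls by the adjusted p alone cannot lose a call. Over all genes of the list and alternatives, 2002 fold changes stayed on their side of the thresholds, 33 passed them, 25 no longer did and 1 reversed. That one was CENPQ at 46h against 0h, at -0.10 as reported and 0.59 with quantile normalization, which moved the median of all genes from -0.25 to 0.34. The number called higher at 22h against 0h, 2 as reported, was 4 with quantile normalization and 4 as TPM without mitochondrially encoded genes. At 46h against 22h it rose from 7 to 11, and at 46h against 0h from 9 to 15, with quantile normalization. The median of the list at 46h against 22h, -0.06 as reported, was -0.20 without the filter, 0.25 with median-of-ratios scaling, 0.39 with quantile normalization and -0.15 as TPM. At 46h against 0h the median of 0.09 became -0.048 without the filter, 0.45 under median-of-ratios scaling, 0.60 under quantile normalization and -0.005 as TPM. Without the filter all genes had medians of -0.028 at 46h against 22h and -0.041 at 46h against 0h, so the list no longer lay above them. Without the filter the list gained CENPT (-0.51 at 46h against 22h) and SKA3 (-0.55), and the genes tested went from 7013 to 17633. The part of each in this was not tested.

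Leaving out 1 library at a time gave 2 to 5 genes higher and 2 to 4 lower at 22h against 0h, 6 to 7 and 7 to 9 at 46h against 22h, and 7 to 9 and 9 to 9 at 46h against 0h. The medians ranged from -0.05 to 0.09, from -0.17 to -0.011 and from 0.04 to 0.19. The 5 higher came without replicate 4 at 0h, which added CENPA, CENPJ and HJURP, and the 4 lower without replicate 1 at 22h, which added CENPP and MIS12.

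With the replicate block, 8 genes were called higher at 46h against 0h, since HJURP (0.63, adjusted p = 0.0538) was lost, and the other counts stayed at 2 and 2, 7 and 8, and 9 lower. Deviations from the stage mean correlated at -0.466 to 0.381 over 12 same-numbered pairs, of which 3 were over 0.1, against -0.428 to 0.532 over 36 others. Same-numbered pairs of 22h and 46h gave 0.381, 0.00884, 0.211 and 0.127, and those with 0h gave -0.466 to 0.0845. Whether the numbers pair any libraries cannot be decided from so few values. No read counts are at hand, so levels near 1 FPKM, such as those of HJURP and SKA3, have an unknown counting error.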
